A study of Mus musculus with 9 samples.

Results

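The arrays described here are the 3 controls of an Affymetrix expression series with 9 arrays in all, and they were chosen by their titles, which name an LMN vector, Rluc and day 5. The cells are a murine acute myeloid leukaemia line whose genotype is labelled MLL-AF9/NrasG12D, on a genetic background labelled B6/SJL(CD45.2). The other arrays of the series carry shRNAs against the Polycomb genes Eed and Suz12 and were not used here. Every array of the series shares the MLL-AF9 and NrasG12D alleles, culture in RPMI1640 with serum and antibiotics, and transduction with an MSCV-based virus. The control vector holds an shRNA against Renilla luciferase (Rluc), a gene that mouse cells lack, so Polycomb repressive complex 2 (PRC2) was not targeted in these cells. The labels do not say whether the line is 1 clone, or whether the 3 arrays came from separate cultures, so the spread between them may be technical.

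MLL-AF9 joins the front of the histone methyltransferase MLL (Kmt2a) to the end of AF9 (Mllt3), and the fusion keeps genes such as Hoxa9 and Meis1 active by recruiting transcription elongation factors. NrasG12D is a form of the small GTPase Nras that stays in its active state and feeds the MAP kinase pathway. Leukaemias of this kind are known to resemble granulocyte and monocyte progenitors, cells that make primary granule proteins and respond to the growth factors GM-CSF, IL-3 and M-CSF.

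Levels are log2 RMA values, the scale on which the authors deposited each probe set, and a step of 1 is a doubling of signal. A probe set stood for each of 19937 genes, the one with the highest mean over the 3 control arrays. Olfactory receptor genes, which blood cells have no known use for, served as a guide to background: 1015 were measured, with a median of 4.92. The 95th percentile of their means, 6.33, was the first limit, and the highest of their means, 8.48, was the second. A gene passed a limit when all 3 arrays lay above it. Of all genes, 65.5% passed the first limit (13059 genes) and 39.2% the second (7814 genes), and these shares are the background for every count of list members that follows. No test was made, because all values come from 1 group. Signal also depends on how well each probe set binds, so places in the order of signals are places of probe sets and do not rank transcripts by copy number.

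**Figure D1:**
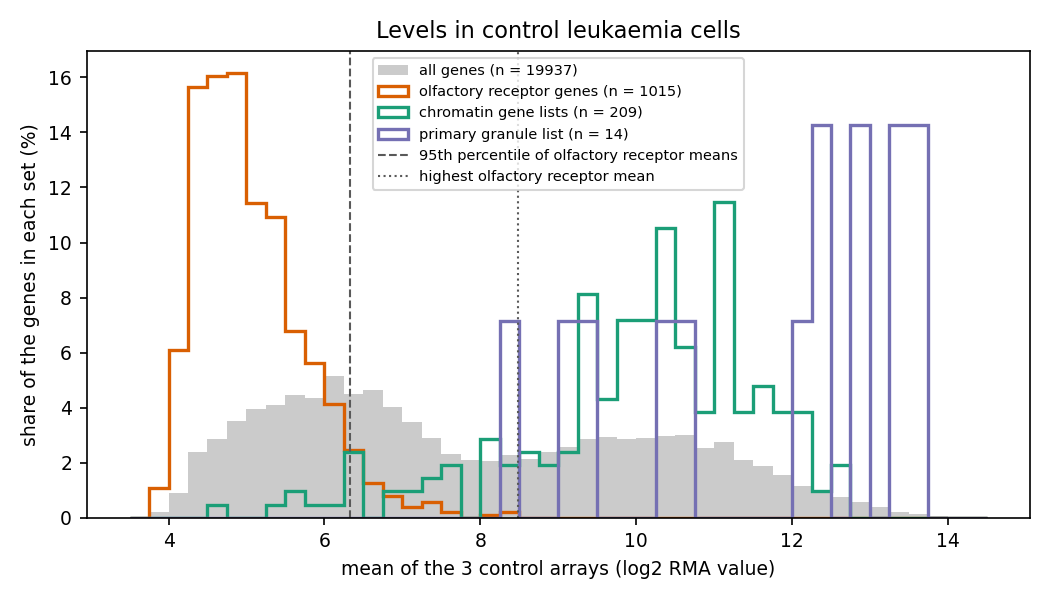
Share of genes (y axis, %) by mean log2 RMA value over the 3 control arrays (x axis) for all genes, olfactory receptor genes, the chromatin gene lists and the primary granule list, with the 2 limits as vertical lines. Olfactory receptor genes have a median of 4.92, against 7.37 for all genes, 10.27 for the 209 chromatin genes and 12.34 for the 14 primary granule genes.

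The first limit was lenient. Of 36 measured transcription factor genes of other tissues, such as Hnf4a of liver (7.22 ± 0.04, SD, n = 3) and Nkx2-5 of heart (8.32 ± 0.04), 19 passed it and 1 passed the second. The exception was the neural factor gene Sox1, at 8.60, 8.53 and 8.53 on arrays 1, 2 and 3, which lost its place without array 3, when the second limit rose to 8.62. Of 88 keratin and keratin-associated genes, 32 passed the first limit and 0 the second. Values between 6.33 and 8.48 are therefore given as measured and read neither as expression nor as its absence. The brightest olfactory receptor genes were Olfr1174 (8.58, 8.66 and 8.20) and Olfr767 (8.70, 8.36 and 8.30), and the third, Olfr239, stood at 8.04 ± 0.06. Among other chemoreceptor families, 1 of 165 vomeronasal and 3 of 37 taste receptor genes passed the first limit and 0 the second.

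The 4 genes named as marks of this leukaemia were all above the first limit, and 3 were above the second. Hoxa9, a homeobox factor that MLL fusions keep active, stood at 10.55, 10.50 and 10.60. Meis1, its DNA-binding partner, stood at 11.20, 11.09 and 11.08. The arrays gave much the same level for both genes. Mpo, the myeloperoxidase of primary granules, lay at 13.32, 13.28 and 13.41, at percentile 99.7 of all genes. Flt3, a receptor tyrosine kinase of early progenitors, was at 8.20, 7.70 and 8.04. Flt3 thus stayed under the second limit on every array and was lowest on array 2.

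Granule genes and PRC2 genes were both bright but had promoters of different make-up, so promoters of each kind are shown. The 300-base windows run from 250 bases before to 50 bases after the annotated start and come from RefSeq (GRCm38.p6), 5′ to 3′ on the gene's strand, with both bases of each CpG in capitals. Mpo (chr11:87793534-87793833, plus strand) holds 2 CpG, Elane (chr10:79886062-79886361, plus) 6 and Prtn3 (chr10:79879417-79879716, plus) 4. Ezh2, which encodes the PRC2 methyltransferase (chr6:47594981-47595280, minus strand), holds 31, and Myb (chr10:21160935-21161234, minus) 40. Olfr767, the brightest olfactory receptor gene with an entry (chr10:129079912-129080211, minus), holds 1.
Mpo: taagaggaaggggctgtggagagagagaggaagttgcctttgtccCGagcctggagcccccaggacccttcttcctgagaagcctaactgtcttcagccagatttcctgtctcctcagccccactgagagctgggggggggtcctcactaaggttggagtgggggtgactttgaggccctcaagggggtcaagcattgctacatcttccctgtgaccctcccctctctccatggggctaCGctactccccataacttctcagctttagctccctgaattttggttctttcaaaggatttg
Elane: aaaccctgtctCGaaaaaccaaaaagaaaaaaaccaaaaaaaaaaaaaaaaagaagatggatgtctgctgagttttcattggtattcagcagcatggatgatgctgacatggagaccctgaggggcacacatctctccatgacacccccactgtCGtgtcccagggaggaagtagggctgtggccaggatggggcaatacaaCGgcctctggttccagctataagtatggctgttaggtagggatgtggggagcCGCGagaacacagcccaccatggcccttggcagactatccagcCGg
Prtn3: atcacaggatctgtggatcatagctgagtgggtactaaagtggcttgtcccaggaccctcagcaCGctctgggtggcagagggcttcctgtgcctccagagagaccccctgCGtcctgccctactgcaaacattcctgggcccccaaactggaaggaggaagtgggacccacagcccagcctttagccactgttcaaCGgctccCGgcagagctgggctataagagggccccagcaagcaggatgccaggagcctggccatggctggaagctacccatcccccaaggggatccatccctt
Ezh2: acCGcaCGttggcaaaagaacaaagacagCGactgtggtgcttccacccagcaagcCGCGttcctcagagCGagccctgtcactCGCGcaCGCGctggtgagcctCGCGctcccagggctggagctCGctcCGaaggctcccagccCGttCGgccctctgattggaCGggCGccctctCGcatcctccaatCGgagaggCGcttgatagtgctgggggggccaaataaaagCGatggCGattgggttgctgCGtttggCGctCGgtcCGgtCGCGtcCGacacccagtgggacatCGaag
Myb: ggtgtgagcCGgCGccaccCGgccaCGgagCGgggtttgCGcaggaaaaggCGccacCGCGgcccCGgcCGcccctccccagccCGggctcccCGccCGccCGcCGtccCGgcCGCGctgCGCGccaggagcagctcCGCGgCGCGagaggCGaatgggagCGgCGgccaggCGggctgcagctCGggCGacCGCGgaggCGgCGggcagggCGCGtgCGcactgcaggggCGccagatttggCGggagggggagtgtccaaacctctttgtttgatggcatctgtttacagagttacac
Olfr767: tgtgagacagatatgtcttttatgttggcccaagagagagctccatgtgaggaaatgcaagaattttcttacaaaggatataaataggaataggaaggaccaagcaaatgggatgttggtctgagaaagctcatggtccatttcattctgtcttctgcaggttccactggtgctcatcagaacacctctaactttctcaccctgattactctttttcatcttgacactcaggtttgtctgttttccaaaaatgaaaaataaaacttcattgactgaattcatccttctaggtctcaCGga

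A promoter entry of full length was found for 15613 of the 19937 genes, and the first entry was taken where a gene had several (2637 genes). CpG content was higher in brighter groups of genes up to the second limit and differed little beyond it. The ratio of observed to expected CpG had a median of 0.107 in 863 olfactory receptor genes, 0.301 in 4363 other genes that did not pass the first limit, and 0.609 in 3954 genes between the limits. Cutting the genes above the second limit into 3 equal groups from dim to bright gave medians of 0.779, 0.817 and 0.829. A ratio over 0.6, a common mark of CpG islands, was found in 22.9% of the other genes under the first limit and in 81.7% of the brightest group. The GC share moved less above the first limit, from 59.3% between the limits to 61.3% in the brightest group.

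Primary granule genes did not share that make-up. Only 25.0% of 12 such promoters had a ratio over 0.6, with a median of 0.367. The 14 measured genes of this list had a median level of 12.34, with members from 8.37 to 13.73. Monocyte and macrophage genes had such a ratio in 4.0% of 25 promoters and late neutrophil genes in 5.26% of 19. Cell cycle genes had it in 84.0% of 25, all 6 PRC2 core genes had it, and nucleosome remodeller genes had it in 91.9% of 37. Over all 15613 promoters the share was 52.3%.

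Short motifs were counted on both strands of the same windows, as letters and not as sites. CGGAAG, the core of many ETS factor sites, was present in 22.6% of all promoters, in 8.48% of the other genes under the first limit and in 39.7% of the brightest group. GGGCGG, the GC box, was in 49.9% of all promoters and 69.0% of the brightest group. TATAAA ran the other way, with 12.1% of all, 41.5% of olfactory receptor genes and 6.62% of the brightest group. GAGGAA, the letters of many PU.1 sites, was in 27.0% of all promoters and in 28.5% of the brightest group, and 6 of 12 primary granule, 13 of 25 monocyte and macrophage and 13 of 19 late neutrophil promoters held it. Lists of other kinds varied widely. Among the higher counts were 7 of 13 T cell, 6 of 10 megakaryocyte, 6 of 13 stromal and endothelial, 3 of 6 PRC2 core and 4 of 8 PRC2 accessory promoters. Among the lower were 2 of 16 stem and early progenitor, 2 of 12 dendritic, 7 of 37 remodeller and 0 of 5 CDK inhibitor promoters. CCAAT was in 38.2% of all promoters, CACGTG in 8.38% and TGACGT in 9.31%. In olfactory receptor genes and the brightest group, CACGTG had 2.09% and 12.4%, TGACGT had 1.16% and 14.8%, and CCAAT had 40.6% and 40.2%. Both CACGTG and TGACGT hold a CpG, as do CGGAAG and GGGCGG, whereas TATAAA holds none. The median GC share was 35.0% in olfactory receptor promoters and 61.3% in the brightest group. Whether any motif share differed beyond this GC and CpG content was not tested. GGGCGG and CGGAAG can overlap at the letters CGG, and CGGAAG and GAGGAA at a single end letter.

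The brightest genes included 11 of the cytosolic ribosome and others of varied roles. The 30 brightest with an ordinary gene name lay between 13.57 and 14.24, within the first 32 places, where 2 small RNA or clone entries were left unnamed. Eef1a1, the elongation factor that brings aminoacyl-tRNA to the ribosome, led at 14.24 ± 0.03 (SD, n = 3), followed by Actb (14.10), the gene of beta-actin. Of the 30, 11 encode proteins of the cytosolic ribosome, among them Rpl9 (14.09 ± 0.04), Rplp0 (13.86 ± 0.02) and Rps6 (13.80 ± 0.12). Each level is that of the gene's brightest probe set. The lowest probe set had a mean of 9.61 for Rpl9 and 8.49 for Rps6, against 13.64 for Rplp0. The initiation and elongation factor genes Eif4a1 (13.92) and Eef2 (13.71) and the poly(A)-binding protein gene Pabpc1 (13.81) belong to the same machinery. Many of these genes have processed pseudogenes of near-identical sequence, and their probe sets may read several copies.

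The other bright genes have varied roles. H4c4, a replication-dependent histone H4 gene, stood at 13.90, and Ldha, which makes lactate from pyruvate, at 13.84. Slc25a5, the mitochondrial exchanger of ADP and ATP, was at 13.79, and Fth1, the ferritin heavy chain, at 13.57. Cytoskeletal genes included Arpc1b (13.78) of the actin-branching Arp2/3 complex, Tubb5 (13.74) and the GTPase gene Rhoa (13.66). Lgals1, which encodes a galactose-binding lectin, was at 13.71, Hspa8, a chaperone, at 13.71, and Txn1, thioredoxin, at 13.70. Only Srgn, the proteoglycan that packs granule proteins (13.70, 13.75 and 13.74), and Elane, neutrophil elastase (13.62, 13.62 and 13.66), represented granules among the 30.

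Housekeeping families are given by their counts. All 77 mitochondrial ribosomal protein genes passed the first limit and 76 the second, with a median of 10.28. Of 44 proteasome genes 42 passed both limits, of 46 splicing and ribonucleoprotein genes 45 passed both, and of 61 cytosolic ribosomal protein genes 59 passed the first and 55 the second. All 31 measured genes of dividing cells passed both limits (median 12.17), with the kinase gene Cdk4 at 13.36 ± 0.04, the proliferation marker Mki67 at 11.99 ± 0.06 and Birc5 lowest at 10.28. All 22 glycolytic and housekeeping genes measured did so too (median 13.17).

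Inhibitors of the cell cycle kinases gave a mixed picture. Cdkn1b (p27) stood at 10.76 ± 0.02, though its dimmer probe set was at 7.64. Cdkn2a, which encodes p16 and p19 and is a classic Polycomb target, was at 7.37, 7.55 and 7.47, and its neighbour Cdkn2b (p15) at 7.82, 8.09 and 7.83. Both stayed between the limits on all arrays. Of the 6 inhibitor genes measured, 6 passed the first limit and 2 the second, Cdkn1b and Cdkn2d (9.02 ± 0.06).

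The primary granule list, which also holds genes of other roles such as Gfi1 and Ms4a3, was the brightest lineage list by median. All 14 measured passed the first limit and 13 the second, with a median of 12.34 against 7.37 over all genes. The serine protease genes of these granules were Elane, Ctsg, or cathepsin G (13.39, 13.39 and 13.40), and Prtn3, or proteinase 3 (12.86, 12.86 and 12.94). The arrays differed by less than 0.1 for each of them. Serpinb1a, an inhibitor of those proteases, was at 12.98 ± 0.04, Ctsc, which activates them, at 12.29 ± 0.02, and Ms4a3, a membrane protein of granulocyte and monocyte progenitors, at 12.38 ± 0.06. Gfi1, a repressor that drives granulocyte formation, was at 10.59 ± 0.08. Nkg7, the dimmest, was at 8.18, 8.20 and 8.73, with only array 3 over the second limit.

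Of 21 measured late neutrophil genes, 15 passed the first limit (71.4%) and 7 the second (33.3%), with a median of 7.41. These shares are near those of all genes, 65.5% and 39.2%, so nothing is read from the list's count. Those above both were Olfm4 (11.85 ± 0.03), the lipocalin gene Lcn2 (11.46, 11.57 and 11.38), the calprotectin subunits S100a8 (10.96 ± 0.13) and S100a9 (10.53 ± 0.08), Ngp (10.58 ± 0.02) and the stefins Stfa3 (10.30) and Stfa2 (9.56). The secondary granule genes Ltf, lactoferrin (7.18, 7.33 and 7.43), and Camp, cathelicidin (7.84, 7.90 and 7.76), lay between the limits. Mmp9, gelatinase B of tertiary granules, did so too at 7.05 ± 0.07. Under the first limit were Mmp8, neutrophil collagenase (6.15 ± 0.08), Ly6g, the surface mark of mouse neutrophils (5.82, 6.29 and 5.76), and Retnlg (5.49 ± 0.09). Thus Lcn2 and Ltf, both secondary granule genes, fell on opposite sides of the second limit.

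Of 34 measured monocyte and macrophage genes, 23 passed the first limit and 17 the second (median 8.39). The chemokine gene Ccl9 stood at 12.52, 12.64 and 12.63, the lysozyme gene Lyz2 at 12.26 ± 0.07, the protease gene Ctsb at 12.16 ± 0.03, Itgam, or CD11b, at 11.94, 11.87 and 11.90, and Cd68, a lysosomal protein, at 11.63 ± 0.10. Also above both limits were Adgre1 (F4/80) at 9.77 ± 0.06, the endotoxin co-receptor Cd14 at 9.14, 9.71 and 9.19, and the chemokine receptor Ccr2 at 9.15 ± 0.16. Array 2 was highest for Cd14. Apoe, the lipid carrier that macrophages secrete, was above both limits at 8.65 ± 0.04. The endotoxin receptor Tlr4 (8.23 ± 0.04), the IgG receptor Fcgr1 (8.11 ± 0.12) and F13a1 (6.65 ± 0.13), a clotting factor gene of monocytes, lay between the limits, as did Lyz1, Marco and Msr1. The complement genes C1qa, C1qb and C1qc, the mannose receptor Mrc1 (5.23 ± 0.13), the haemoglobin scavenger receptor Cd163 (5.34 ± 0.05), Ms4a7 (5.47), Mertk, Timd4, Spic, Clec4n and Vcam1 did not pass the first limit.

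**Figure D2:**
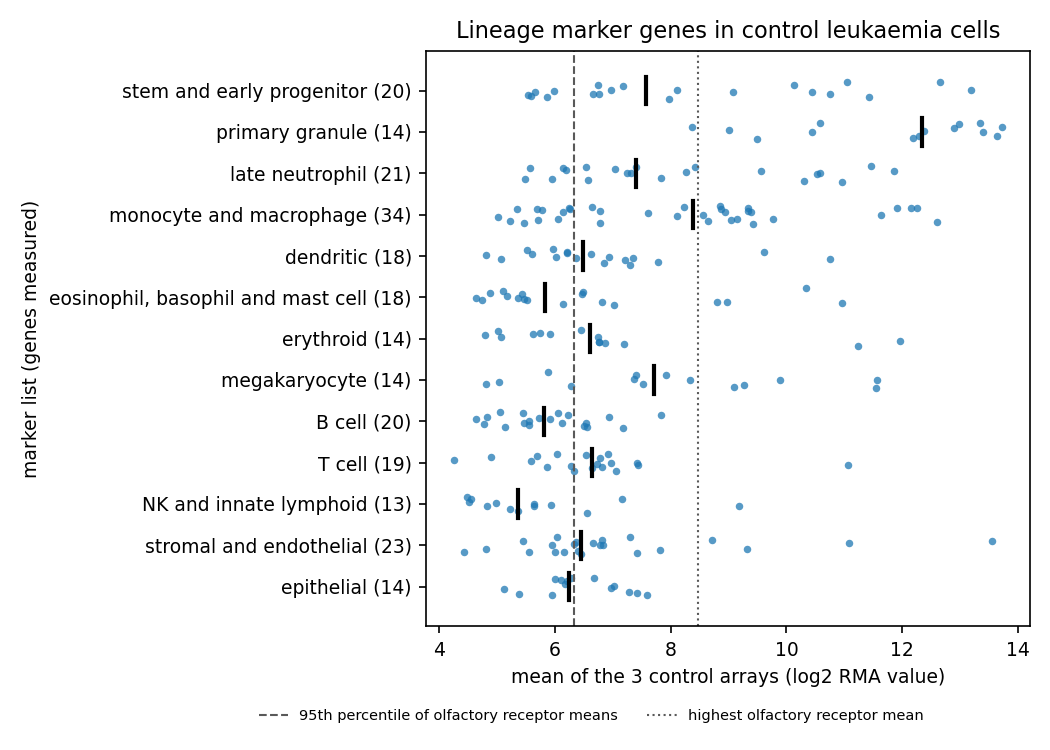
Mean log2 RMA value over the 3 control arrays (x axis) for each measured gene (point) of 13 marker lists (y axis), with the list median as a black bar, small vertical shifts to separate points, and the 2 limits as vertical lines. The primary granule list has its median at 12.34, while the medians of the B cell (5.82), eosinophil, basophil and mast cell (5.83), epithelial (6.24) and NK (5.37) lists lie under the first limit.

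Of 20 measured stem and progenitor markers, 15 passed the first limit and 8 the second (40.0%, against 39.2% of all genes), with a median of 7.58 against 7.37. As a list they therefore did not stand apart from all genes, and single members are described. Cd34, the sialomucin of progenitors, stood at 13.25, 13.16 and 13.17, Lmo2, a bridge protein of blood transcription complexes, at 12.66 ± 0.03, Cd93 at 11.43 ± 0.07, and the stem cell factor receptor Kit at 10.36, 10.44 and 10.51. The factors Gata2 (10.75 ± 0.14) and Erg (10.14 ± 0.02) and the MLL-fusion target Eya1 (11.04 ± 0.04) passed both limits as well, as did the angiopoietin gene Angpt1 (9.08 ± 0.16). Markers of long-term stem cells under the first limit were as follows: Slamf1, or CD150, was at 5.57, 5.64 and 5.43, the angiopoietin receptor Tek at 5.66 ± 0.07, and Mecom (EVI1) at 5.60 ± 0.12. Procr, Fgd5 and Hlf fell between the limits.

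Of 18 eosinophil, basophil and mast cell genes, 7 passed the first limit and 4 the second. The 4 were Hdc, which makes histamine (10.95, 10.93 and 10.98), the mast cell carboxypeptidase Cpa3 (10.40, 10.26 and 10.35), the basophil protease Mcpt8 (8.97 ± 0.06) and Siglecf (8.80 ± 0.07). The eosinophil granule gene Epx was at 6.61, 6.49 and 6.33, just over the first limit, and fell under it without array 1. Prg2, the major basic protein gene, was at 6.29, 6.66 and 6.53, and array 1 kept it below. The IgE receptor genes Fcer1a and Ms4a2 and the mast cell proteases Cma1, Mcpt1 and Mcpt4 did not pass the first limit.

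Of 14 megakaryocyte genes, 10 passed the first limit (71.4%) and 5 the second (35.7%). These shares are near the 65.5% and 39.2% of all genes, so nothing is read from this list's count. Nfe2 (11.56 ± 0.10) and Fli1 (11.55 ± 0.05), transcription factors also used by other myeloid cells, led, followed by the integrin Itgb3 (9.90 ± 0.11), Zfpm1 (9.28 ± 0.15) and Gp9 of the von Willebrand factor receptor (9.09 ± 0.13). Itga2b, or CD41, was at 7.95, 7.98 and 7.85, and the platelet chemokine gene Pf4 at 5.03 ± 0.03. Of 14 erythroid genes, 8 passed the first limit and 2 the second. Those were the transferrin receptor Tfrc (11.96 ± 0.06), which all dividing cells use, and the repressor Gfi1b (11.20, 11.42 and 11.09). Klf1, the master factor of red cells, was at 6.77 ± 0.04, Car1 at 5.75 ± 0.22 and the embryonic globin Hbb-bh1 at 5.02 ± 0.03. The adult globin genes have no probe set with a single gene symbol here and were not analysed.

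Few lymphoid genes passed the second limit. Of 20 B cell genes 6 passed the first limit and 0 the second. The highest of these was Cd79b at 7.83 ± 0.03, while its partner Cd79a was at 4.79, 4.97 and 4.73, the CD20 gene Ms4a1 at 4.78 ± 0.02 and the B cell factor Pax5 at 6.12 ± 0.09. Of 19 T cell genes 11 passed the first limit and 1 the second, with 10 between the limits. That gene was Cd28, the costimulatory receptor of T cells, at 10.96, 11.27 and 10.98 and percentile 88.2. The defining T cell genes did not follow it, with Cd3e at 6.82 ± 0.04, Cd3g at 4.91 ± 0.03 and Cd4 at 5.70 ± 0.07. Of 13 NK and innate lymphoid genes only Id2 (9.18 ± 0.12), a factor also used by myeloid cells, passed the second limit.

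Of 18 dendritic cell genes 9 passed the first limit and 2 the second, Tcf4 (10.75 ± 0.03) and the tetherin gene Bst2 (9.61 ± 0.03). Cd74, the invariant chain of MHC class II, was at 6.74, 7.13 and 6.71, and the class II gene H2-Aa at 5.53 ± 0.10. Of 23 stromal and endothelial genes 13 passed the first limit and 4 the second: Vim, an intermediate filament gene of leukocytes too (13.56 ± 0.05), the adhesion molecule Pecam1 (11.07 ± 0.04), Pdgfrb (9.33 ± 0.08) and Acta2 (8.71 ± 0.06). Of 14 epithelial genes 6 passed the first limit and 0 the second. The collagen genes Col1a1, Col1a2 and Col3a1 lay between the limits, and Lum and Dcn under the first.

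Genes of leukocyte surface proteins passed both limits more often than all genes did. Of 65 measured leukocyte surface genes 57 passed the first limit and 44 the second, 67.7% against 39.2% of all genes. The tetraspanin genes Cd53 (13.25, 13.24 and 13.30) and Cd81 (13.25 ± 0.04), the MHC class I light chain B2m (13.26 ± 0.02) and Cd47, which signals to phagocytes (13.16 ± 0.04), were at percentiles 99.4 to 99.6. Cd33 (12.05 ± 0.05), the Fc receptors Fcgr3 (11.67 ± 0.03) and Fcgr2b (11.57, 11.76 and 11.50), the leukocyte integrin chain Itgb2 (12.61 ± 0.02) and Clec12a (11.65 ± 0.14) were also above both limits. Ptprc, or CD45, the pan-leukocyte phosphatase whose allele is named in the label of the line, was at 11.07, 11.10 and 11.14. The 8 genes that did not pass the first limit were Ly6g, Slamf1, Dpp4, Cd86, Cd96, Cd226, Mme and Cd55. Ly6a (Sca-1), Ly6c1 and Ly6c2 have no probe set with a single symbol here and were not analysed.

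Of 101 measured transcription factor genes of myeloid cells 96 passed the first limit and 68 the second (median 9.86), or 67.3%. Myc stood at 12.85, 12.98 and 12.89, and Myb, a factor that progenitors need to keep dividing, at 12.86, 12.85 and 12.93. Spi1 (PU.1), which sets up the myeloid programme, was at 12.40, 12.46 and 12.35. The 3 genes differed between arrays by at most 0.13. The 10 brightest of all the factor lists held these 3 with Cdk6 (12.88), Ybx1 (12.70), Lmo2 (12.66), Cbx5 (12.28), Pbx3 (12.21), Tfec (12.18) and Mef2c (12.14). Cdk6 and Cbx5 stand on the MLL leukaemia list, although they encode a cell cycle kinase and a heterochromatin protein.

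The C/EBP factors, which direct granulocyte formation, were spread out. Cebpe, the factor of late granule genes, was at 11.96, 11.87 and 11.94, Cebpa at 10.14, 10.36 and 10.19, Cebpb at 9.81 ± 0.16, and Cebpd at 8.22 ± 0.11, between the limits. Irf8, the factor of monocytes and dendritic cells, was at 11.01, 11.03 and 11.30, and Klf4, which acts late in monocytes, at 6.78 ± 0.13. Runx1 was at 9.85 ± 0.05, Runx3 at 11.01 ± 0.07 and their partner Cbfb at 11.52 ± 0.05. The 5 members that did not pass the first limit were Id3, Ikzf3, Irf4, and the B cell factors Pax5 and Ebf1.

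Of the Hox clusters, only HoxA had genes above the second limit. Its shares, 63.6% above the first limit and 27.3% above the second, were no higher than the 65.5% and 39.2% of all genes. The Hox clusters lie on separate chromosomes, and their genes are known to be switched on in order along the cluster during development. In HoxA 7 of 11 measured genes, Evx1 included, passed the first limit and 3 the second: Hoxa7 (10.27, 10.19 and 10.26), Hoxa9 and Hoxa10 (8.91, 8.84 and 9.02), which are neighbours. Beside them Hoxa4 (8.32 ± 0.07), Hoxa5 (7.49 ± 0.01) and Hoxa6 (8.39 ± 0.08) lay between the limits. At the ends, Hoxa2 (6.01, 5.99 and 5.99), Hoxa3 (6.23 ± 0.09), Hoxa11 (5.82 ± 0.06) and Hoxa13 (6.27 ± 0.11) did not pass the first limit. No gene of the other clusters passed the second limit. In HoxB 7 of 9 passed the first limit, led by Hoxb4 (7.73 ± 0.04) and Hoxb3 (7.65 ± 0.14), in HoxC 0 of 9, and in HoxD 4 of 10, led by Evx2 (7.83 ± 0.03), a flanking gene.

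**Figure D3:**
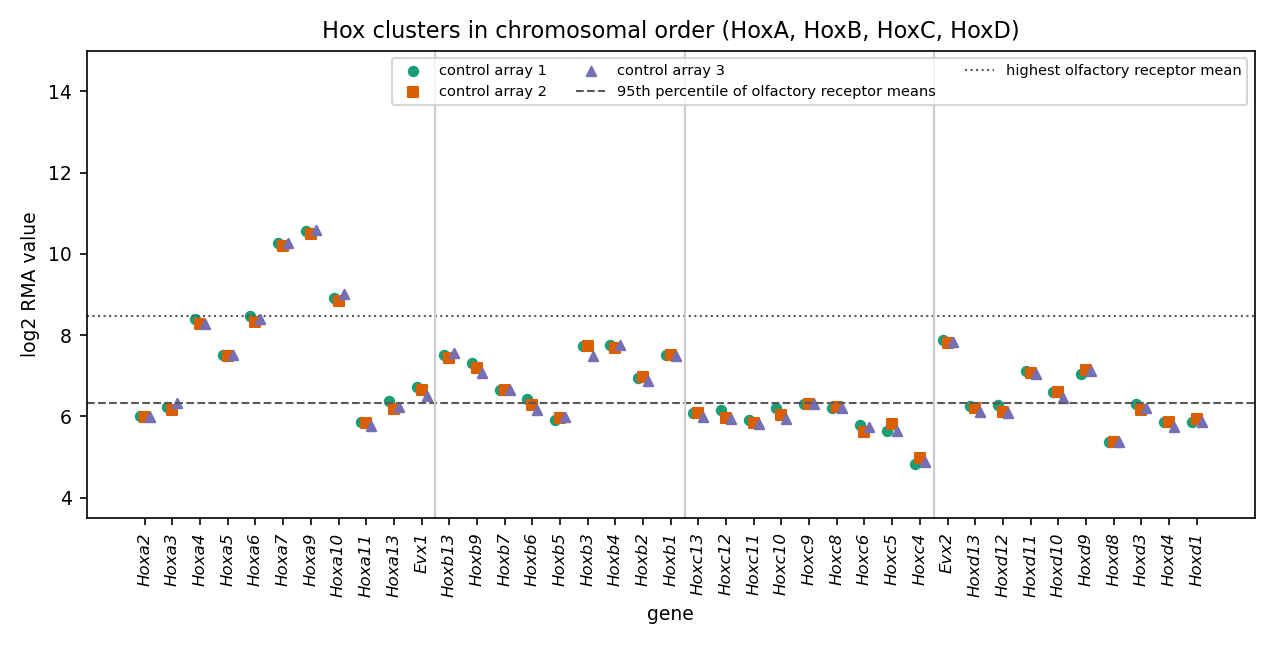
Log2 RMA value (y axis) of each Hox cluster gene, ordered by start position within HoxA, HoxB, HoxC and HoxD (x axis, clusters separated by grey lines), on control arrays 1, 2 and 3, with the 2 limits as horizontal lines. Hoxa7, Hoxa9 and Hoxa10 are above 8.48 on all arrays, and every HoxC gene has a mean under 6.33.

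The wider MLL leukaemia programme was bright. Of 24 measured genes 22 passed the first limit and 18 the second (median 10.84). Pbx3, a cofactor of Hox proteins, was at 12.24, 12.21 and 12.17, Mef2c at 12.16, 12.17 and 12.10, Cdk6 at 12.83, 12.83 and 12.97, Zeb2 at 10.93 ± 0.05 and the survival gene Bcl2 at 11.58 ± 0.02. Among relatives of Meis1, Meis2 was at 5.52 ± 0.05 and Meis3 at 7.58 ± 0.14. Sox4, a factor of leukaemic self-renewal, was at 7.62 ± 0.01, between the limits. Meis2 and Mecom did not pass the first limit.

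Of 14 measured myeloid growth factor receptor genes 11 passed the first limit and 9 the second (median 8.88). The GM-CSF receptor subunits were brightest, with the alpha chain Csf2ra at 12.04, 12.08 and 12.12 and the shared beta chain Csf2rb at 11.65, 11.75 and 11.63. The IL-3 beta chain Csf2rb2 was at 9.88 ± 0.05, the IL-3 alpha chain Il3ra at 8.76 ± 0.09 and the M-CSF receptor Csf1r at 9.41, 9.47 and 9.31. The beta chain genes Csf2rb and Csf2rb2 are close copies, and reads of each by the other's probes were not tested. The G-CSF receptor Csf3r, at 8.55, 8.49 and 8.64, was only just above the second limit, and lost that place without array 3. Il6ra (9.68 ± 0.11) and its signalling partner Il6st (8.91, 8.86 and 9.24) also passed both limits. The erythropoietin receptor Epor, at 7.19 ± 0.08, fell between them, and the receptors Il5ra, Lifr and Osmr were under the first.

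Few genes of secreted cytokines and growth factors passed the second limit. Of 23 measured 9 passed the first limit and 4 the second, which were Tgfb1 (12.77 ± 0.05), Tnf (11.18, 11.65 and 11.25), Vegfa (10.21 ± 0.12) and Osm (8.72 ± 0.23). Osm lost that place without array 3, which left 3 genes. Stem cell factor, Kitl, was at 4.53 ± 0.01, Il3 at 4.61 ± 0.03, GM-CSF, Csf2, at 5.35 ± 0.14 and Il6 at 4.29 ± 0.02, all at percentile 15.5 or below. Flt3l lay between the limits at 8.41 ± 0.05, and Csf1 did so too at 7.78 ± 0.27. Array 2 was highest for Tnf, Osm and Csf1.

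Of 23 measured chemokine receptor genes 10 passed the first limit and 3 the second: Cxcr4, which holds progenitors in the marrow (11.27, 11.08 and 11.28), Ccr2, and the fractalkine receptor Cx3cr1 (8.91, 9.27 and 8.96). Cxcr2, the receptor of mature neutrophils, lay between the limits at 7.41 ± 0.17. Of 50 other cytokine receptors 37 passed the first limit (74.0%) and 19 the second (38.0%), near the 65.5% and 39.2% of all genes. The interferon receptor chains Ifngr2 (12.26), Ifnar2 (12.03) and Ifngr1 (11.80 ± 0.09) led these receptors, and Tnfrsf1a, which binds TNF, was at 11.16 ± 0.05. The TSLP receptor Crlf2 (10.25 ± 0.06), the TACI gene Tnfrsf13b (9.54 ± 0.02) and the IL-18 accessory chain Il18rap (9.09 ± 0.03) were above both limits. The IL-18 binding chain Il18r1 was at 4.72 ± 0.10.

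**Figure D4:**
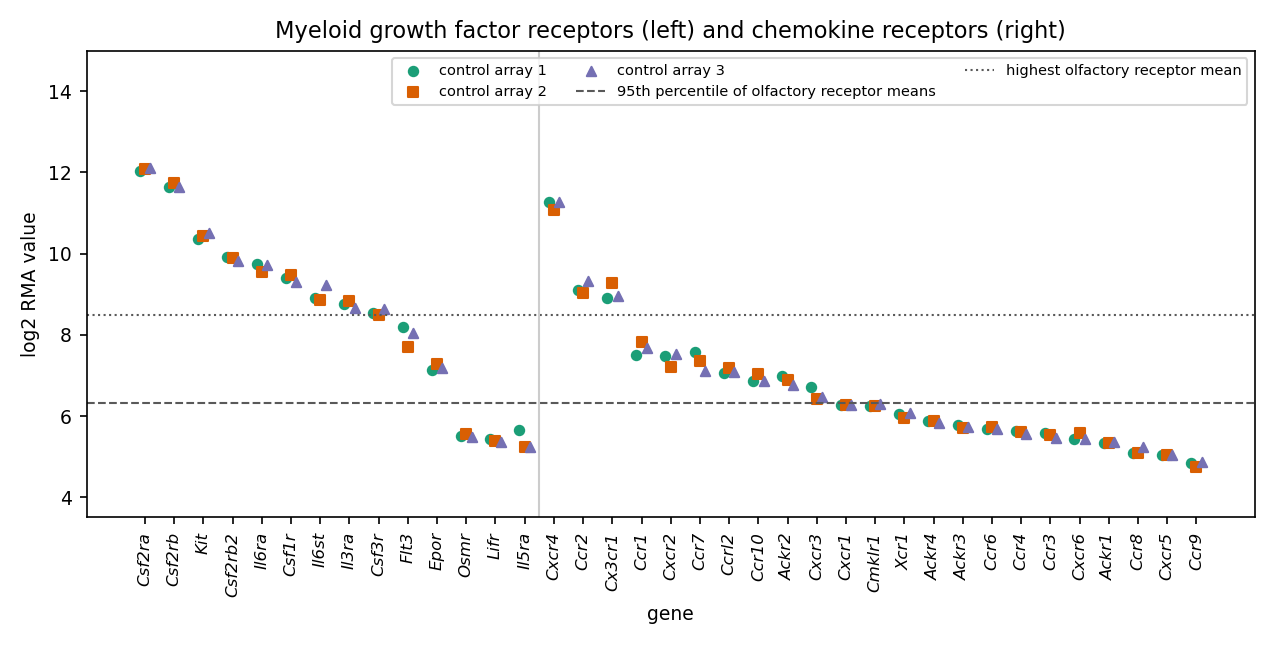
Log2 RMA value (y axis) of the measured myeloid growth factor receptor genes and chemokine receptor genes (x axis, each set from bright to dim, separated by a grey line) on control arrays 1, 2 and 3, with the 2 limits as horizontal lines. Csf2ra, at a mean of 12.08, and Cxcr4, at 11.21, lead their sets.

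Of 37 measured genes of Ras and cytokine signalling 36 passed the first limit and 28 the second (median 10.01), and 8 lay between the limits. Nras, which probes read without telling the mutant from the normal allele, was at 11.53, 11.53 and 11.53. The feedback phosphatase of ERK, Dusp6, was at 10.80, 11.01 and 10.98, the Ras-Raf inhibitor Spred1 at 10.42 ± 0.06 and the ERK-dependent factor Etv5 at 10.12 ± 0.04. Spry2, another feedback gene, stayed between the limits at 8.15 ± 0.10, as did Spry1, Spry4, Dusp4, Cish, Socs1, Socs2 and Socs3. The phosphatase gene Ptpn6 (SHP-1) was at 11.83 ± 0.01 and Rasa3, the gene of a GTPase-activating protein, at 11.62 ± 0.03. The exchange factor Rasgrp2 was at 11.44 ± 0.04, while Rasgrp1 was the member under the first limit. Of the Janus kinases, Jak1 was at 11.81 ± 0.02 and Jak2, which GM-CSF and IL-3 receptors use, at 8.70 ± 0.10, and Jak2 fell under the second limit without array 3.

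Chromatin genes passed both limits more often than all genes did. Of 209 measured genes 199 passed the first limit (95.2%) and 176 the second (84.2%), against 65.5% and 39.2% of all genes. Housekeeping families had higher shares above the second limit, from 86.4% (respiratory chain) to 98.7% (mitochondrial ribosomal proteins). A high share was therefore not particular to chromatin genes. All 6 PRC2 core genes passed both limits. The methyltransferase Ezh2 was at 12.25, 12.21 and 12.21, its scaffold Suz12 at 12.10, 12.09 and 12.23, and Eed, which reads the methyl mark, at 10.24, 10.14 and 10.27. A second probe set of Eed had a mean of 5.31, so its place rests on the probe set used. The histone-binding gene Rbbp4 was at 12.68 ± 0.05 and the alternative methyltransferase Ezh1 at 9.81 ± 0.06. Of 9 accessory genes 9 passed the first limit and 6 the second, with Mtf2 (11.61 ± 0.07), Jarid2 (11.49 ± 0.03) and Phf19 (9.66 ± 0.12) among those above both. Ezhip, an inhibitor of PRC2 best known in germ cells, was at 6.58, 6.55 and 6.33, just over the first limit, and fell under it without array 1.

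PRC1, which binds the PRC2 mark and ubiquitinates histone H2A, had 21 of 23 measured genes above the first limit and 18 above the second (median 9.41). The catalytic subunits were Rnf2 at 10.85, 10.80 and 10.91 and Ring1 at 9.34 ± 0.02. The adaptor Yaf2 was at 11.43 ± 0.01 and the subunit gene Bmi1 at 9.92, 9.68 and 9.99. Of the CBX readers, Cbx7 was at 8.62 ± 0.07, above the second limit, while Cbx8 (8.53, 8.08 and 8.69) crossed it on arrays 1 and 3 only and Cbx2 (8.22 ± 0.02) was under it. Auts2 and Scml2 did not pass the first limit.

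**Figure D5:**
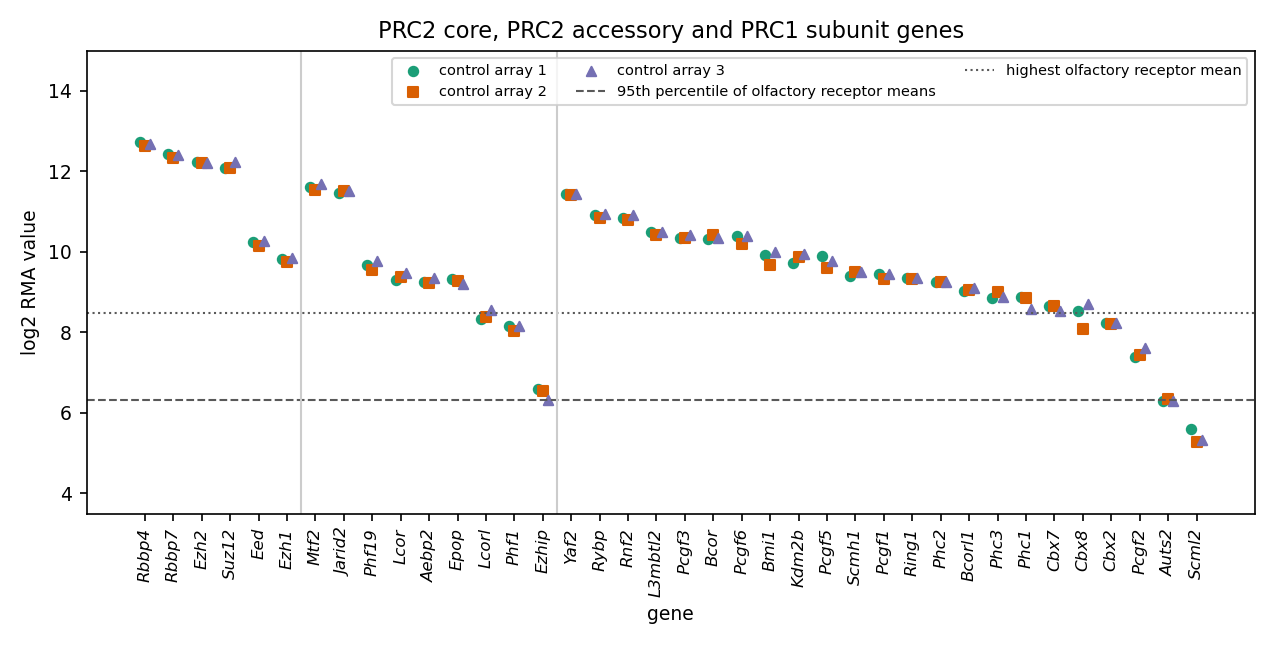
Log2 RMA value (y axis) of PRC2 core, PRC2 accessory and PRC1 subunit genes (x axis, each set from bright to dim, separated by grey lines) on control arrays 1, 2 and 3, with the 2 limits as horizontal lines. The core genes lie between 9.81 (Ezh1) and 12.68 (Rbbp4), and Scml2, at 5.40, is the dimmest PRC1 gene.

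Genes of MLL complexes and of elongation, the partners of the fusion protein, are given next. Of 39 measured 37 passed the first limit and 35 the second (median 10.31). The cofactor Men1 (menin) was at 11.08, 11.09 and 11.11, Psip1 (LEDGF) at 10.04 ± 0.11, the H3K79 methyltransferase Dot1l at 10.24, 10.36 and 10.24, and the elongation kinase Cdk9 at 11.91 ± 0.03. The elongation partners Mllt1 (ENL, 11.06 ± 0.04), Aff1 (10.97 ± 0.03) and Aff4 (11.10 ± 0.06) passed both limits. Kmt2a was at 9.65, 9.74 and 9.73 and Mllt3 at 8.08, 8.18 and 8.16, and how far their probes read the fusion was not tested. The testis gene Brdt and the fusion partner Aff3 were the members under the first limit.

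Enzymes of DNA and histone marks followed. Of 16 DNA methylation genes 15 passed the first limit and 13 the second. Dnmt1, which copies methylation after replication, was at 12.11, 12.13 and 12.16, Dnmt3a at 9.33 ± 0.04 and Dnmt3b at 7.59 ± 0.15, while the germ cell cofactor Dnmt3l was at 6.37, 6.32 and 6.32 and missed the first limit on arrays 2 and 3. Among the TET enzymes that oxidize methylcytosine, Tet2 was at 10.30 ± 0.05, Tet3 at 9.94 ± 0.05 and Tet1 at 7.06 ± 0.09. The H3K27 demethylases Kdm6a (10.21 ± 0.06) and Kdm6b (9.55, 9.94 and 9.74) passed both limits, as did Kdm1a (10.62 ± 0.09) and Jmjd1c (11.48 ± 0.05). Of 22 demethylase genes 21 passed the first limit and 18 the second, and of 20 other histone methyltransferase genes 20 and 18.

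The arginine methyltransferase Prmt5 led all chromatin lists at 12.68, 12.73 and 12.74. After Rbbp4 came Actl6a (12.65), Hdac1 (12.62), Rbbp7 (12.40), Hat1 (12.28), Pbrm1 (12.25), Ezh2, Kat7 (12.17) and Suz12. Of 31 acetylation genes 31 passed the first limit and 27 the second. Of 45 remodeller genes 41 and 37 did so. The SWI/SNF ATPase Smarca4 was at 11.54 ± 0.02 and its alternative Smarca2 at 8.42 ± 0.09, between the limits, as were Chd5, Dpf1 and Dpf3. The actin-related subunit Actl6a passed both limits while its neuronal form Actl6b, at 6.34 ± 0.05, passed neither. Asxl3, Smarcd3 and Smarca1 (4.63 ± 0.01) were the other members under the first limit. Chd7 (11.77 ± 0.06) had 30 probe sets, and the lowest had a mean of 8.88.

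Survival and sex-linked genes completed the lists. All 14 measured BCL2 family genes passed the first limit and 9 the second, with Mcl1 at 11.02 ± 0.04, Bcl2l1 at 9.47 ± 0.15 and the killer gene Bak1 at 11.73 ± 0.03. Xist, the RNA that silences an X chromosome in females, was at 5.39, 5.34 and 5.41, under the first limit. The Y chromosome genes Eif2s3y (8.55 ± 0.08), Uty (7.57 ± 0.30) and Kdm5d (7.50 ± 0.16) passed it. Eif2s3y was the gene of these above the second limit, a place it lost without array 3 or after quantile normalization.

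The 3 arrays were close. Taken over genes, the differences between arrays 1 and 2 had an SD of 0.123, against 0.123 for arrays 1 and 3 and 0.140 for arrays 2 and 3. The median SD of a gene over the 3 arrays was 0.06, and 13 of 19937 genes ranged over more than 1. Array medians over genes were 7.39, 7.37 and 7.34.

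Over 13014 genes above the first limit other than snoRNA genes, array 3 was highest for 5386, array 1 for 4139 and array 2 for 3489. The genes with the largest differences ran otherwise. Of the 15 named genes with the largest range among those above the first limit, 12 were highest on array 2, and 18 small RNA or clone entries ranked among them. The chemokine gene Ccl4 was at 8.03, 8.98 and 7.87, the serpin gene Serpinb2 at 8.10, 9.05 and 7.94, and the desaturase gene Scd1 at 9.27 ± 0.59, highest on array 2 and lowest on array 1. Ptgs2, the inducible cyclooxygenase (7.42, 8.24 and 7.25), Egr1, an immediate early factor (9.28, 10.00 and 9.25), and the interferon-induced chemokine gene Cxcl10 (9.05, 9.78 and 8.98) were highest on array 2 and lowest on array 3, as were Ccl4 and Serpinb2. Slc7a11, the cystine importer, was at 10.33, 11.27 and 10.60, and Cth, which makes cysteine, at 9.57, 10.44 and 10.36. The exceptions were Ublcp1 (7.20, 6.75 and 7.78) and the iron exporter gene Slc40a1 (7.45 ± 0.43), highest on array 3, and Clec4a2, highest on array 1. In a count made after these values were seen, 37 of 45 snoRNA genes above the first limit were highest on array 2 (82.2%), 7 on array 3 and 1 on array 1, against 26.8% highest on array 2 among the 13014 other genes. Their median difference was 0.37 from array 1 and 0.28 from array 3. What sets array 2 apart was not tested.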

How the data were processed

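Total RNA was reverse transcribed and the cDNA labelled with biotin by an Affymetrix whole-transcript kit, per the labels' protocols. The deposited values are log2 probe set levels that the authors made by RMA (robust multi-array average), per the submitters' processing notes. The sources used here give neither a software version nor whether all 9 arrays were normalized together.

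Of 34760 probe sets, 21640 carried a single symbol and were used, 1321 carried several symbols, and 11799 are unnamed here. By gene number, 21553 matched a GRCm38.p6 gene table, used for names and gene order. For 954 genes with several probe sets the one with the highest mean over the control arrays was kept, and in 213 of them the probe sets fell on both sides of the first limit. RMA values carry no detection call, and the number of arrays limits the precision.

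Python 3.11.15, numpy 2.4.6 and pandas 2.3.3 computed means, SDs and percentiles. The code was run on simulated data in which background and olfactory receptor genes had the same distribution. That setting fixed the outcome in advance, so the run does not test the rule on real arrays. There were 40 lists of genes and 12 families by symbol, written from general knowledge. The control arrays and lists were chosen with earlier results of these data known, and the second limit after the values were seen. Named genes are list members, the 30 brightest, the 15 with the largest range and the 10 brightest olfactory receptor, factor, receptor and chromatin genes. Promoters came from RefSeq.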

Additional observations from a re-analysis of the deposited data

Results flagged for a closer look

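Signal was also present in probe sets that no gene level above used. Of 11799 probe sets unnamed here, 2147 lay above the highest olfactory receptor mean on all 3 control arrays, 18.2%. Of 1321 probe sets with several gene symbols, 484 did so, 36.6%. No gene was assigned to either kind.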

How the results depend on the processing

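Of 659 recomputed values, 636 kept within 1.5 times their count or within the spread, and 23 moved. With the 99th percentile of olfactory receptor means as the first limit (7.24), 10075 genes passed it, and the lists fell to 3 dendritic, 4 eosinophil, basophil and mast cell, 2 erythroid, 1 B cell, 3 T cell, 1 NK, 6 stromal, 2 epithelial, 4 HoxB, 1 HoxD, 3 germ layer factor, 4 chemokine receptor and 2 sex-linked genes. With vomeronasal and taste receptors as the guide (5.68), 15488 genes passed, with 14 dendritic, 10 B cell, 12 epithelial, 11 HoxA, 6 HoxC, 9 HoxD and 29 germ layer factor genes. Above the second limit, leaving out each array in turn gave 0 to 1 germ layer factor genes and 0 to 1 sex-linked genes, and quantile normalization gave 0 sex-linked genes. Fewer genes passing a higher limit follows from its construction. The other settings were the mean of the arrays, the mean over probe sets and median centring, and none of these moved a value. Without array 2, 13126 genes passed the first limit. RMA values carry no depth, and signal near the limits cannot be told from background. No paired analysis was made, because only 1 group was used.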
